A study of Drosophila melanogaster with 4 samples.

Results

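H3K4me3, histone H3 trimethylated on lysine 4, was mapped in normal ovaries of Drosophila melanogaster, and the genes that carried it are described here across the genome. Regions were taken from the peak lists of the 2 control libraries. Peaks of the lists that shared at least 1 base were merged, and a region was kept when it held a peak of both libraries. This gave 10269 regions of the 26010 regions in the control lists (26557 in the 4 lists of the series). A protein-coding gene was called marked when such a region reached within 500 bp of one of its annotated transcription start sites. By this rule 7123 of 13968 protein-coding genes were marked (51.0%), 4887 genes (35.0%) had no peak in either library, 1614 had a peak in replicate 2 only, 319 in replicate 1 only, and 25 had peaks of both libraries that did not overlap.

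Chromatin was immunoprecipitated and sequenced (ChIP-seq) from whole ovaries of females titled WT, whose genotype is given as a control for knockdown experiments, MTD-Gal4>+. These females carried the MTD-Gal4 driver, which expresses the Gal4 activator in germ cells, and no hairpin transgene, and there were 2 libraries of this genotype. The labels disagree on age, with 3-day-old females in one field and virgins of 0 to 1 day in the protocol, and the methods of the study give ovaries of 2-day-old females, dissected separately for each replicate. The series also holds a germline knockdown of the demethylase gene lid, which enters no comparison below. Germ cells and somatic follicle cells were lysed together, so a low value cannot tell few marked cells from little mark per cell.

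Trimethylation of H3K4 is placed by Set1/COMPASS and related complexes and removed by KDM5 demethylases. It accumulates on the first nucleosomes downstream of the start sites of transcribed genes. An ovary is a string of egg chambers, in which germline nurse cells load an oocyte with RNA, protein and ribosomes while a layer of follicle cells secretes the yolk proteins and, later, the eggshell. Fly promoters fall into classes with different core sequences. The DRE, the binding site of Dref, and Ohler motif 1 are common at housekeeping genes, the TCT initiator at genes of the translation machinery, and the TATA box at genes restricted to a tissue or stage.

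Promoters of these classes that stand at the extremes of the values below are shown first, from 120 bases before the start site to 20 bases from it onward (Release 6 genome, the dm6 build). The first 3 belong to ribosomal protein genes that had some of the strongest regions, and capitals mark a DRE (TATCGATA) or a TCT initiator (TCTTT). Their positions are chrX:19597920-19598059, plus strand, for RpS10b, chr2L:18443209-18443348, minus strand, for RpS26, and chr2L:13395073-13395212, minus strand, for RpL24.
RpS10b: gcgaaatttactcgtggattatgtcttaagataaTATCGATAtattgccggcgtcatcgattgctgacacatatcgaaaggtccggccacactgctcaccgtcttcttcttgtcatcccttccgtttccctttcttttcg
RpS26: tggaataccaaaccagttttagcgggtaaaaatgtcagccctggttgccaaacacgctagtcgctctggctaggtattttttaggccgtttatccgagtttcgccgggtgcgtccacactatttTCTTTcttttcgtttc
RpL24: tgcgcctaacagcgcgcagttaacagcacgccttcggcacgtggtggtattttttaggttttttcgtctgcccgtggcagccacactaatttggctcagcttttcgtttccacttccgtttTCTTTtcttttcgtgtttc

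The next promoters belong to genes of follicle cells that had low coverage, the chorion gene Cp36 (chrX:8479199-8479338, plus strand) and the vitelline membrane gene Vm26Aa (chr2L:5960321-5960460, minus strand), with the TATA box (TATAAA) in capitals. The promoter of vas (chr2L:15061536-15061675, plus strand), a germline gene with no peak in either library, is shown in lower case throughout. It had no DRE in this stretch and no TATA box or TCT initiator in the windows searched. A TATAAA in this stretch lies farther from the start than the 40 bases searched for the TATA box.
Cp36: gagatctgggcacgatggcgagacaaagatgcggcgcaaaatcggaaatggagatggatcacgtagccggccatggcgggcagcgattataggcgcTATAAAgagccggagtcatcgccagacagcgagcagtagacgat
Vm26Aa: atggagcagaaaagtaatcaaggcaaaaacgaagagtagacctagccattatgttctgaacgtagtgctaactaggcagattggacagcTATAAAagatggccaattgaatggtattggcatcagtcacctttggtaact
vas: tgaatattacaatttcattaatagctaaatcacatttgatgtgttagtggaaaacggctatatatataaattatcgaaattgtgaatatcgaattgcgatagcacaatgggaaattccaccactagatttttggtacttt

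The control libraries differed in depth and in list length. Replicate 1 had 12087 peaks and a background of 60.1 fragments per base, and replicate 2 had 25302 peaks and a background of 48.4. The strength of a region is given below as summit coverage, the number of fragments over the peak summit divided by this background, always for replicate 1 and then replicate 2. Across the marked genes, which are not replicates, the libraries ranked coverage alike (Spearman rho 0.957), and the log2 ratio of replicate 2 to replicate 1 had a median of 0.61 and a standard deviation (SD) of 0.39. This ratio rose with the GC content of the region (Spearman rho 0.545 over 10205 regions). Genes called in replicate 1 only had a median promoter GC content of 35.0%, against 45.0% for those called in replicate 2 only and 37.0% for marked genes. The part of base composition in single calls was not tested.

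Most shared regions lay at starts of protein-coding genes. There were 6743 such regions (65.7%), with a median coverage of 13.4 and 17.5 times background and a median called width of 802 and 731 bp. Gene bodies away from any start held 2869 regions, with a median coverage of 1.75 and 2.77. A further 401 were intergenic, 205 were at starts of other genes such as noncoding RNAs, and 51 lay on unplaced sequence. Coverage of 8 or more in both libraries was reached by 4602 regions at protein-coding starts but by 39 in gene bodies and 2 between genes. Because fly genes are dense, 2720 of the regions at starts (40.3%) were within reach of at least 2 genes, and a region over a divergent pair cannot be assigned to one of them.

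Position relative to the start was read at 1050 marked genes with a single start and no other start within 2000 bp. The summit lay a median of 299 bp downstream of the start in replicate 1 and 321 bp in replicate 2, and it was downstream at 94.7% and 93.7% of these genes. The region reached from a median of 32 bp upstream to 884 bp downstream. Summits of the 2 libraries were a median of 31 bp apart. The rule limits how far a region can be from the start, so distances are bounded by it. At genes with coverage of 8 or more, 99.8% and 99.7% of summits were downstream, and at genes with coverage below 4, 77.6% and 76.7%.

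**Figure D1:**
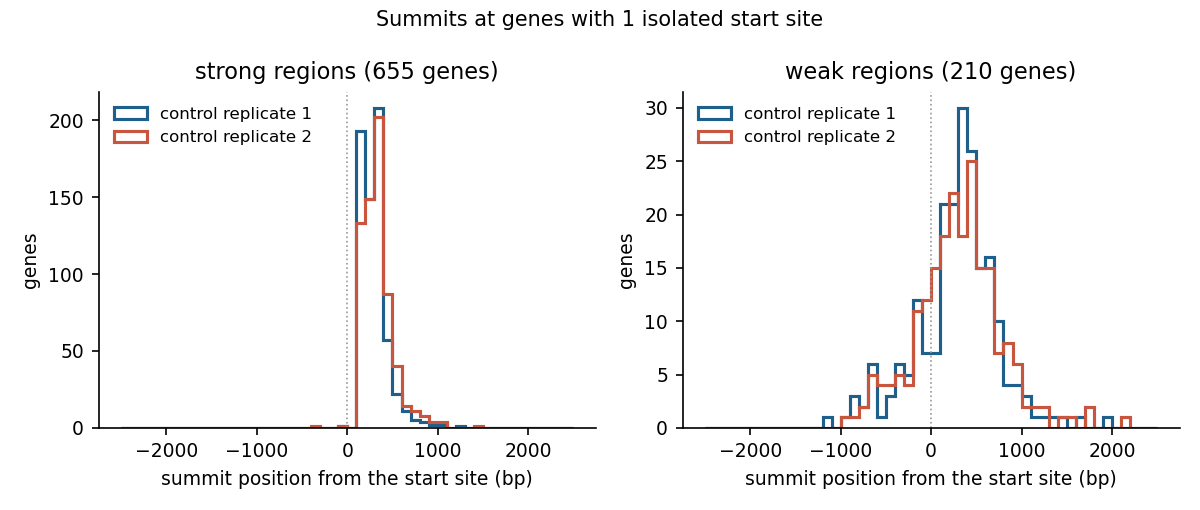
Summit position relative to the start site (bp, positive downstream, bins of 100 bp) at genes with 1 isolated start, as the number of genes in each control library, for strong regions (coverage of 8 or more in both libraries, 655 genes) and weak regions (below 4 in both, 210 genes). Strong summits cluster at a median of 295 and 316 bp downstream, while weak summits spread to both sides of the start.

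Marked genes fell into a large strongly marked class and a small weak one. The median coverage was 15.8 and 22.4 times background. Coverage was at least 8 in both libraries at 5619 genes (78.9% of marked genes) and below 4 in both at 621 genes (8.72%), and the other 883 genes met neither limit in both libraries. The limits were set after the distribution was seen. The weak genes had a median promoter GC content of 45.7%, against 36.0% for the strong ones.

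**Figure D2:**
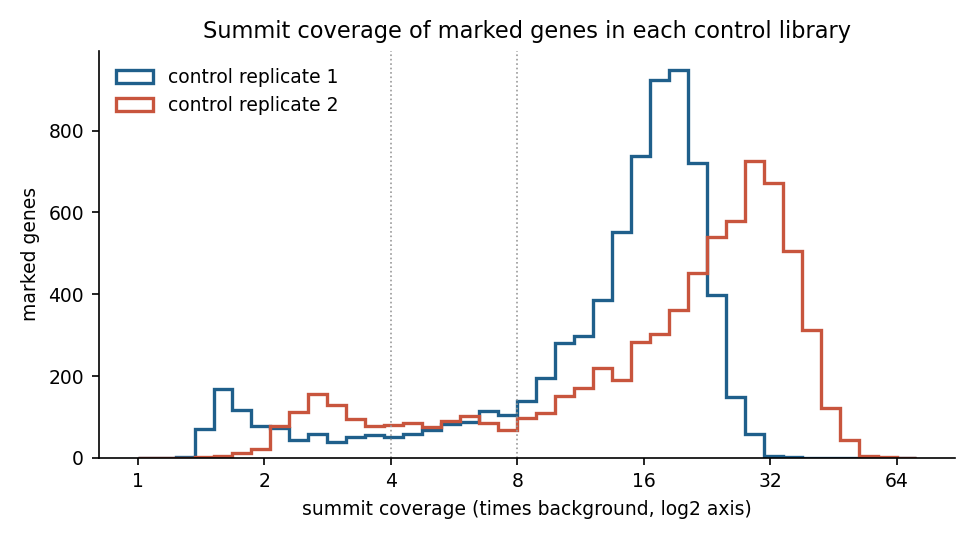
Number of marked genes by summit coverage (times background, log2 axis) in control replicates 1 and 2, with dotted lines at 4 and 8. Each library has a main peak above 8 and a smaller one near 2, and replicate 2 is shifted to the right by a median of 0.61 on the log2 scale.

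Ribosomal protein genes led the order of strength. Of the 15 regions with the highest coverage, 10 held one of them. The first was RpL22 (X, 762853-765182), where coverage was 37.0 and 60.1 times background, the highest of any marked gene in both libraries. It was followed by RpL24 at 33.0 and 53.1, RpL23A at 31.8 and 53.9, the region shared by RpL13 and Dref at 31.1 and 54.8, and RpS10b at 31.8 and 53.5. RpL23A thus exceeded RpL24 in replicate 2 and fell below it in replicate 1, and the order within this group was not resolved. RpS15, RpS26, RpLP2, RpLP1 and RpLP0 completed the 10, with coverage of 28.996 to 29.9 in replicate 1 and of 47.5 to 49.7 in replicate 2.

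The remaining 5 of the strongest regions lay at other widely expressed genes. Nacalpha, a subunit of the complex that binds nascent polypeptides at the ribosome, had coverage of 29.8 and 51.3. ATPsynO, a subunit of the mitochondrial ATP synthase, had 28.96 and 49.4, and Tapdelta, a protein of the translocon at the endoplasmic reticulum, had 28.9 and 48.0. One region covered the starts of Ggamma1, a G protein subunit, ana2, a centriole duplication factor, MrgBP and CG13751, with coverage of 30.3 and 49.9. Another lay between CG5746 and CG6454, at 30.3 and 50.7. None of these 15 regions was at a gene from the germline list below.

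The order depended on how the surroundings of a peak were treated. The deposited fold enrichment divides the summit by the local background, which at the 15 strongest regions was 2.20 to 7.81 times the background of the genome. By fold enrichment, none of the 15 leading regions was shared with the order by coverage and none held a ribosomal protein gene. The genes that led in its place included Lamtor1, Ent1, Ranbp16, Rnf146 and Cul2, where the local background was 1.00 to 1.62 times that of the genome, with coverage of 16.2 to 20.9 in replicate 1 and of 25.4 to 35.6 in replicate 2. The first 2 places went to intergenic regions of the X chromosome, one of which (23216901-23217792) had coverage of 39.0 in replicate 1 but 11.6 in replicate 2. Across marked genes coverage and fold enrichment were ranked only loosely alike (Spearman rho 0.474 and 0.504).

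Lists of genes with a known role were then read against the share of all protein-coding genes that were marked, 51.0%, and against the strongest 712 marked genes (10.0%). Of 94 cytoplasmic ribosomal protein genes, 87 were marked (92.6%), with a median coverage of 24.0 and 39.1, and 58 were among these strongest 712. By fold enrichment 13 did, and by the -log10 p-value 33, while with ranks taken within classes of GC content 71 did. For 42 of the 87 the only regions in reach were shared with another gene. The lowest values were 7.67 in replicate 1, at RpS15Ab, and 9.16 in replicate 2, at RpS3A. The 7 unmarked genes included RpL10Aa, RpL22-like, RpL37-2 and RpS28-like, each a second gene copy without a peak within 500 bp. At RpS28-like, peaks of 5.82 and 6.62 lay 527 and 583 bp downstream, just outside the window and over the start of numb. The others were RpL38, RpL39 and RpS10a. At RpL38 a peak over the start had coverage of 8.02 in replicate 1, and the nearest peak of replicate 2 was 14728 bp away. RpL39 had a peak of 11.7 in replicate 1 only, and RpS10a one of 2.03 in replicate 2 only.

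Other housekeeping machinery was marked nearly throughout. Of the 32 proteasome genes 31 were marked, all of them strongly, with a median of 20.8 and 33.4. The highest were Rpn11, the deubiquitinase of the regulatory particle, at 27.6 and 43.3, and the ATPase gene Rpt2 at 24.7 and 40.7, and Prosalpha1 had no peak within 1960 bp. Mitochondrial ribosomal proteins had 71 of 73 genes marked, led by mRpS22 at 27.9 and 46.2 and mRpL37 at 25.8 and 42.9, while mRpL33 and mRpS5 had peaks in replicate 1 only. All 43 genes of cell cycle and replication were marked, from geminin, the inhibitor of replication licensing, at 23.3 and 36.7, and Orc6, of the origin recognition complex, at 22.7 and 35.3, down to Cdk4 at 5.34 and 4.76. The only regions in reach were shared with another gene at 24 of the 31 marked proteasome genes. This held at 57 of the 71 mitochondrial ribosomal protein genes and 19 of the 43 cell cycle genes.

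Gene copies were marked in a smaller share than their housekeeping counterparts. Among 91 genes of oxidative phosphorylation, 62 of 66 were marked when the 25 copies with symbols ending in L were set aside, and 3 of 25 copies were. ATPsynO and ND-MNLL, a subunit of complex I at 28.7 and 48.0, were the strongest members. The 4 unmarked genes outside the copies, ATPsynbeta, ND-AGGG, ND-MLRQ and UQCR-11, each had a peak in replicate 1 only, and at ATPsynbeta replicate 2 had a peak of 42.5 times background 614 bp upstream, 105 bp from the start of CG11076. The 14 testis copies of proteasome genes had 3 marked members, Prosbeta2R2 at 20.2 and 34.7, Rpt3R at 12.2 and 16.9 and Prosbeta5R2 at 2.21 and 3.21, while in replicate 2 alone 8 of the 14 had a peak, against 61.9% of all genes. Of 53 translation factor genes 42 were marked, with eEF1beta at 29.7 and 46.2 and eEF1gamma at 28.5 and 46.4 the strongest. The unmarked ones included the second copies eEF1alpha2, eIF3d2 and eIF3g2, and also eIF4B, a cofactor of cap-dependent initiation, whose nearest peak was at least 48942 bp away in both libraries. The only regions in reach were shared with another gene at 41 of the 65 marked oxidative phosphorylation genes. This held at 2 of the 3 marked testis copies and 15 of the 42 translation factor genes.

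**Figure D3:**
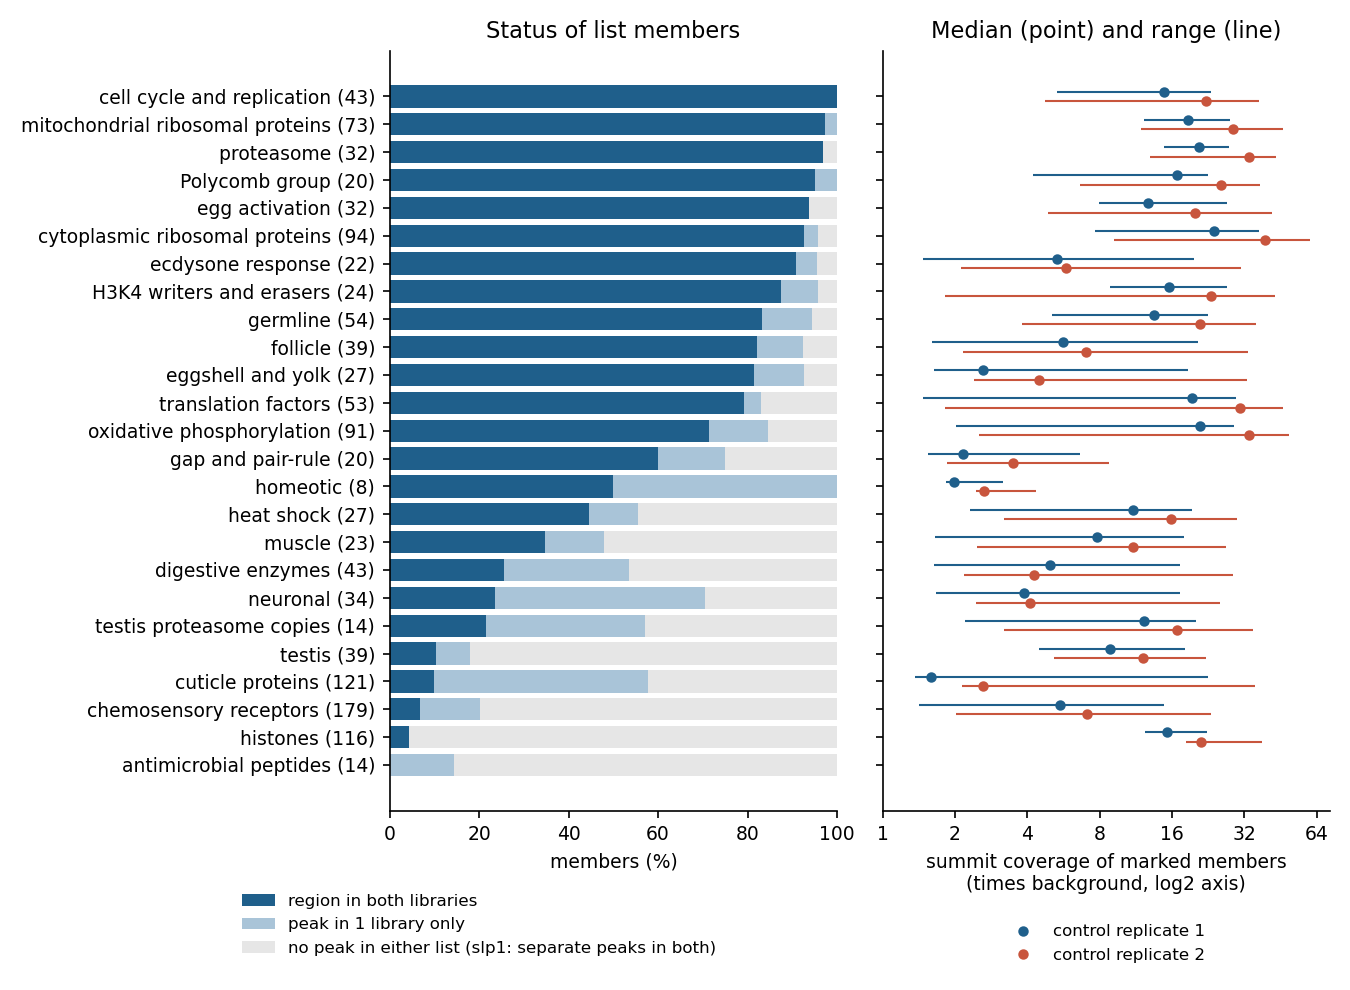
Left, share of the members of each gene list (number of members in parentheses) with a region in both control libraries, a peak in 1 library only, or neither. Right, summit coverage of the marked members (times background, log2 axis), with the median as a point and the range as a line for each library. Proteasome, ribosomal protein and cell cycle genes are more than 90% marked, with medians of 14.9 or more in replicate 1, whereas the marked homeotic, gap and pair-rule genes have medians near 2 there.

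Germline genes were widely marked, with coverage near the middle of the range. Of 54 genes of oogenesis and the piRNA pathway, which silences transposons, 45 were marked (83.3%), with a median coverage of 13.5 and 21.0, none in the weak class and none among the strongest 712. By fold enrichment 3 were among the strongest 712, within classes of GC content 4, and in replicate 1 alone 2. Their median fold enrichment, 5.57 and 8.19, was above that of all marked genes, 5.27 and 6.68, and close to that of ribosomal protein genes, 5.75 and 7.90, so their place in the order depended on the measure. For 20 of the 45 the only regions in reach were shared with another gene. The strongest were spn-E, a helicase of the piRNA pathway, at 22.6 and 34.6, and nxf2, a factor of piRNA-guided silencing, at 22.6 and 34.0. BicD, which links dynein to its cargo, had 20.2 and 35.9, osk, the organiser of the germ plasm, had 12.6 and 21.2, and orb, a regulator of mRNA translation in the oocyte, had 16.6 and 24.0. By the mean of both libraries the lowest marked member was piwi, the nuclear piRNA effector, at 6.01 and 3.805.

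The 9 unmarked germline genes included some with established roles in the ovary. No peak reached the start of vas, a helicase of the germ plasm, aub, a piRNA-binding protein, or bgcn, a differentiation factor, in either library. The nearest peaks at vas had coverage of 17.3 and 22.4 and lay 906 and 942 bp upstream, beside the start of TfIIS. Those at bgcn lay 1923 and 1927 bp downstream at the start of Pym, and the nearest at aub were 1437 and 871 bp upstream, with coverage of 25.5 over the start of RpL9 in replicate 1 and of 5.58 in replicate 2. The other 6 had a peak in replicate 1 only. Its coverage was 4.81 at AGO3, 7.37 at armi, 4.39 at capu, 4.92 at grk, 6.11 at me31B and 8.00 at qin. Promoter GC content was 27.0% to 37.3% at 5 of these 6 genes and 46.3% at grk, with a median of 36.3% at the marked members, and its part in the calls was not tested.

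Genes of egg activation and meiosis were marked in 30 of 32 cases. Some of the 32, such as CycA, Cdk1 and polo, were also counted in the cell cycle list. The median coverage was 12.8 and 20.02, and 27 of the 30 were in the strong class. For 15 of the 30 the only regions in reach were shared with another gene. The strongest were plu, a subunit of the PNG kinase complex, at 27.2 and 41.9, and ncd, a kinesin of the meiotic spindle, at 23.9 and 40.2. The other subunits of that complex, png at 10.8 and 17.7 and gnu at 9.93 and 11.3, were lower in both libraries. The maternal tubulin gene alphaTub67C was unmarked by the rule, but a peak of 13.7 and 23.6 times background lay 559 and 547 bp downstream of its start, just outside the window. At ord, a cohesion factor, the nearest peak was at least 2030 bp away.

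Genes of the follicular epithelium were marked in a similar share to germline genes, with lower median coverage. Of 39 members 32 were marked (82.1%), with a median of 5.63 and 7.03, 13 in the strong class and 8 in the weak class. The strongest were hop, the JAK kinase, at 20.6 and 33.3, and shg, which encodes E-cadherin, at 17.7 and 28.8. The region at dome, the receptor of the same JAK/STAT pathway, had 17.5 and 26.9 and was shared with Ubqn. The transcription factor tj, present in somatic cells of the gonad, had 11.9 and 19.4. Low values were found at upd1, a JAK/STAT ligand made by polar cells, at 2.096 and 3.04, at slbo, the border cell factor, at 1.76 and 2.69, and at dpp, at 2.03 and 3.02. The unmarked members were Mmp2, Notum and rho, each with a peak below 3 in replicate 2 only, peb, with one of 2.20 in replicate 1 only, and ndl, pip and upd3, with none. Median promoter GC content was 46.3% in this list and 36.0% in the germline list.

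Eggshell and yolk genes had the lowest median coverage of the ovarian lists. Of 27 members 22 were marked, with a median coverage of 2.63 and 4.47, and 10 of these were in the weak class, against 8.72% of all marked genes. With a fold enrichment of at least 2 required, 13 were marked. The highest were yl, the yolk protein receptor of the oocyte, at 18.6 and 32.9 and clos, which acts in patterning of the embryo termini, at 12.7 and 19.6. The yolk protein genes Yp1 and Yp2 had 1.71 and 2.77, and 2.00 and 2.92, and Yp3 had a peak in replicate 2 only, 484 bp downstream. The vitelline membrane genes were low in both libraries, from Vm26Ac at 1.63 and 2.40 to Vm26Ab at 2.50 and 4.22 and Vm34Ca at 2.69 and 3.87. Cp7Fa, Fcp3C, Femcoat and ndl were also unmarked. Cp7Fa had a peak of 2.50 in replicate 1, and one of 4.84 in replicate 2 lay 507 bp downstream, just outside the window. Fcp3C had a peak of 3.10 in replicate 2 only. Femcoat had no peak within 18505 bp.

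Chorion genes differed by cluster. Cp15, Cp16, Cp18 and Cp19 on 3L (8726791-8732599) had coverage of 9.38 to 11.3 in replicate 1 and of 14.0 to 17.4 in replicate 2, and Cp36, Cp38, Cp7Fb and Cp7Fc on X had 3.56 to 4.21 and 5.67 to 6.51. The ranges did not overlap in either library. Both clusters are known to be amplified as DNA in follicle cells during oogenesis. The local background, read as coverage over fold enrichment, was 4.22 to 5.74 times that of the genome on 3L and 1.56 to 2.23 on X, and the fold enrichment was 2.22 to 2.33 in the former and 2.25 to 2.55 in the latter in replicate 1, ranges that overlapped. The part of copy number in these coverages was not tested.

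**Figure D4:**
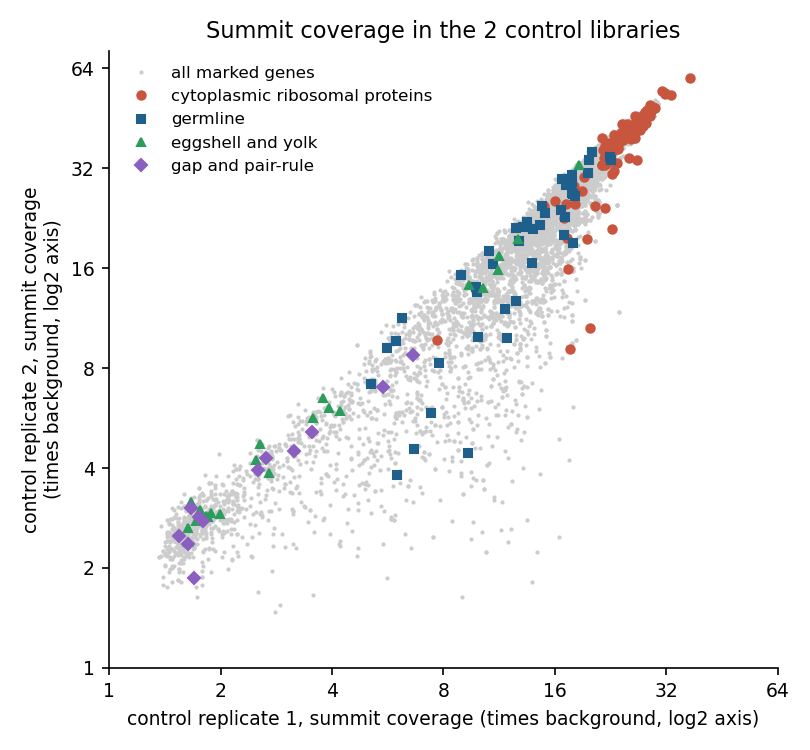
Summit coverage of each marked gene in control replicate 1 (x axis) against replicate 2 (y axis), both in times background on log2 axes, with 4 gene lists in colour. Ribosomal protein genes cluster at the upper end around their medians of 24.0 and 39.1, germline genes lie in the middle, and eggshell, yolk, gap and pair-rule genes extend to the lower end near 2. A band of genes below the main cloud is lower in replicate 2.

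The list of genes for H3K4 methylation had 21 of 24 members marked. It also holds other chromatin genes, among them Sin3A and HDAC1 of the deacetylase complex, CoRest, ash1, Kdm4A and Kdm4B. By the mean of both libraries the strongest were wds, at 27.2 and 42.8, and the methyltransferase gene trr, at 25.4 and 41.6. The region at trr was shared with mRpL16. Like wds, Dpy-30L1 and ash2 encode subunits shared by the methyltransferase complexes, and they had 26.001 and 40.2, and 20.3 and 34.4. The demethylase gene lid, annotated as Kdm5, had 20.8 and 33.7. Set1, the main enzyme that trimethylates H3K4 in flies, had the largest difference between libraries of all marked genes, 13.9 in replicate 1 and 1.82 in replicate 2, and trx had 13.2 and 5.13. Utx had peaks up to 6.77 in replicate 1 only, Hcf had peaks 531 and 825 bp downstream of its start, and Dpy-30L2, the second Dpy-30 copy, had one of 3.23 in replicate 2 only.

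Polycomb group genes, whose products repress developmental regulators, were marked in 19 of 20 cases, 16 of them strongly. The highest were Sce, the ubiquitin ligase of PRC1, at 22.6 and 37.2, and Scm at 22.6 and 36.6. The neighbours Psc and Su(z)2 were low, at 5.51 and 6.66, and at 4.24 and 6.72. The DNA-binding member pho, on chromosome 4, had peaks up to 3.56 in replicate 1 only.

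Developmental regulators that Polycomb represses in many tissues had low values. Of the 8 homeotic genes, 4 were marked, lab at 3.18 and 4.36, Dfd at 2.13 and 2.77, abd-A at 1.83 and 2.50 and Scr at 1.83 and 2.46, and the other 4 (pb, Antp, Ubx and Abd-B) had a peak in replicate 2 only. Among 20 gap, pair-rule and segment polarity genes 12 were marked, none strongly and 7 weakly. The strongest were hry, a pair-rule repressor, at 6.604 and 8.77, and hb, whose maternal RNA is laid down in the egg, at 5.51 and 7.03. Kr and kni had no peak, ftz and gsb had one in replicate 2 only, and slp1 had separate peaks. With a fold enrichment of at least 2 required, 2 homeotic and 6 gap and pair-rule genes remained. Median promoter GC content was 52.3% and 54.5% in these lists.

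Genes of the ecdysone response, the steroid pathway that times egg chamber development, ranged from weak to strong. Of 22 genes 20 were marked, 4 strongly and 6 weakly. The nuclear receptor genes Hr96 at 19.8 and 31.0 and usp at 19.1 and 29.3 were highest, EcR itself had 6.37 and 6.68, and the late factor Eip78C had 1.48 and 2.13. Of the steroidogenic genes, nvd had no peak and shd a peak in replicate 2 only. With the most upstream start alone, 13 of the 22 were marked.

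Genes of other organs were mostly unmarked by the call in both libraries, with shares below the 51.0% of all genes. Of 179 chemosensory receptor genes 12 were marked (6.70%), of 121 cuticle protein genes 12 (9.92%), of 39 testis genes 4 (10.3%), of 34 neuronal genes 8 (23.5%), of 23 muscle genes 8 (34.8%), and of 14 antimicrobial peptide genes none. Many of the marked members were weak, 11 of 12 for cuticle proteins, from Cpr64Aa at 1.36 and 2.15 to Cpr72Ec at 1.88 and 3.29. The testis list includes genes of the Y chromosome, such as kl-2 and kl-3, which these females lack, so those members could not be marked. The counts of all these lists also depend on the call in both libraries. In replicate 2 alone 61.9% of all genes had a peak. So did 70 cuticle, 34 chemosensory, 23 neuronal, 23 digestive, 7 testis and 2 antimicrobial peptide genes. The neuronal share was then above that of all genes, and the cuticle and digestive shares were no longer far below it. With a fold enrichment of at least 2 required in both libraries, 1 cuticle, 7 chemosensory and 7 digestive genes remained. Of the 43 genes taken as digestive enzymes 11 were marked, and their 5 strongest included MagR and Magi, which the name pattern took in and which are not digestive enzymes.

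A few members of these lists were strong. Lcp9 had 22.6 and 35.4, the sugar receptor gene Gr61a 14.8 and 23.3, Jon25Bi 15.5 and 24.4, Nrx-1 17.4 and 25.4 and nSyb 14.97 and 21.7. In the testis list janB had 18.1 and 22.2 and bol, a meiotic regulator, 10.7 and 16.5, and in the muscle list Tm1, which also makes cytoplasmic tropomyosins, had 18.0 and 26.8. Of the 12 marked chemosensory genes, 8 were reached only by regions shared with another gene. This also held for 8 of 11 marked digestive, 2 of 4 testis, 2 of 8 neuronal, 2 of 8 muscle and 1 of 12 cuticle genes. Among the defining markers, all 5 of muscle and all 4 each of fat body and hemocytes were unmarked. All 6 of follicle cells were marked, and so were 4 of the 6 germline markers, while nos could not be matched to a gene. The follicle markers slbo, Fas3, Vm26Aa and Yp1 were weak, at 1.71 to 2.31 and 2.69 to 2.85, near the trypsin genes named next. Cp36 had 3.78 and 6.51, and tj had 11.9 and 19.4. Of the markers of neurons 2 of 5 were marked, of testis 2 of 6 and of gut 3 of 4. Those of gut were Jon25Bi and the trypsin genes alphaTry and betaTry, both at 1.65 in replicate 1. The 2 trypsin genes also had the same called widths, 688 and 1459 bp, so they need not be separate marks.

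A missing peak at repeated genes could not be interpreted. None of 111 copies in the histone repeat was marked, whereas all 5 listed histone genes outside it were. They ran from His3.3A at 22.4 and 38.1 to His3.3B at 12.4 and 18.4, with the maternal linker histone BigH1 at 16.1 and 20.9. The name pattern of the list did not take in His2Av. For 4 of the 5 the only regions in reach were shared with another gene. The lists were made from uniquely aligned reads, which cannot be placed in near-identical copies, and the part of this in the missing peaks was not tested. All 6 Hsp70 genes, also a group of similar copies, were without a peak. Absence of the mark and loss of reads cannot be told apart there. Of 27 heat shock genes 12 were marked, led by Hsc70-5, a mitochondrial chaperone, at 19.4 and 29.9 and Hsp26, a small heat shock protein gene transcribed in nurse cells, at 13.9 and 22.001.

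Width picked out other genes than strength. The median called width at marked genes was 885 bp in replicate 1 and 832 bp in replicate 2, the libraries ranked it less alike (Spearman rho 0.747), and it was weakly related to coverage (Spearman rho 0.270 and 0.319). Of the 15 widest regions 12 were at protein-coding starts, and 6 of these reached at least 2 genes. Single genes among them were raskol, a Ras GTPase activator, with 2886 and 2980 bp, 18w, a Toll family receptor, with 3029 and 2791 bp, brk, a repressor of Dpp targets, with 3153 and 2642 bp, Dyro with 2739 and 2429 bp, par-1, a polarity kinase, with 2383 and 2737 bp, and eEF1alpha1 with 2802 and 2377 bp. Their coverage was modest at raskol, 4.33 and 3.95, and at brk, 4.01 and 6.93. Shared wide regions lay at RpL14, Nelf-E and CG5989, at RpS14b and Ubr3, at dome and Ubqn, at RpL41 and NaCP60E, at Spase12, CG2006 and CG2321, and at Kap-alpha1 and its neighbours. Ordered by the smaller of the 2 called widths, the first region was in a gene body on 3L (8463529-8468044), with 3055 and 4511 bp and coverage of 1.90 and 3.25, although in replicate 1 an intergenic region on 2R was wider, with 3327 bp.

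The widest 712 marked genes (10.0%) held 15 of the 87 marked ribosomal protein genes, 4 of 45 germline genes and 6 of 32 follicle genes. In that group 66.3% of genes belonged to a divergent pair, with the start of the partner within 1000 bp, and at 74.7% the widest region reached another gene. Median promoter GC content was 43.3% there and 35.3% to 40.3% in the other groups of 10% by width.

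Promoter sequence differed between marked and unmarked genes. The DRE (TATCGATA, either strand, within 250 bases before and 50 bases after the start) was found at 15.6% of marked genes, 8.94% of all genes and 1.84% of genes with no peak. Ohler motif 1 was found at 8.24%, 4.35% and 0.164%, and 96.5% of the 608 genes with it were marked, as were 88.9% of the 1249 genes with a DRE. The E-box CAGCTG was found at 23.3% of marked and 17.9% of all genes. The TATA box (TATAAA, 40 to 15 bases before the start) ran the other way, at 2.98% of marked genes, 7.90% of all genes and 12.9% of genes with no peak, and 19.2% of the 1104 genes with it were marked. In replicate 2 alone, 41.0% of these genes had a peak and the box was at 5.24% of the genes with one. A motif match is a description of the sequence, not evidence of binding.

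Within marked genes the same motifs varied with strength. In the weakest and the strongest 10% by coverage, the DRE share was 2.25% and 17.1%, with 16.7% already in the third of the 10 groups and a maximum of 23.03% in the ninth, the share of Ohler motif 1 was 0.702% and 13.1%, and the TATA share was 10.8% and 1.26%. The GAGA element (GAGAGAG, either strand) was found at 14.9% of genes in the weakest 10%, 1.26% in the strongest and 6.19% of all genes. The TCT initiator (TCTTT from 5 bases before to 10 after the start), a motif added after the data were seen, was present at 41.5% of ribosomal protein genes and 1.80% of all genes, as at RpS26 and RpL24 above, and a DRE as at RpS10b was present at 30.9%. Of eggshell and yolk genes 44.4% had a TATA box, as at Cp36 and Vm26Aa above. Motif shares are for all members of these lists, marked or not.

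**Figure D5:**
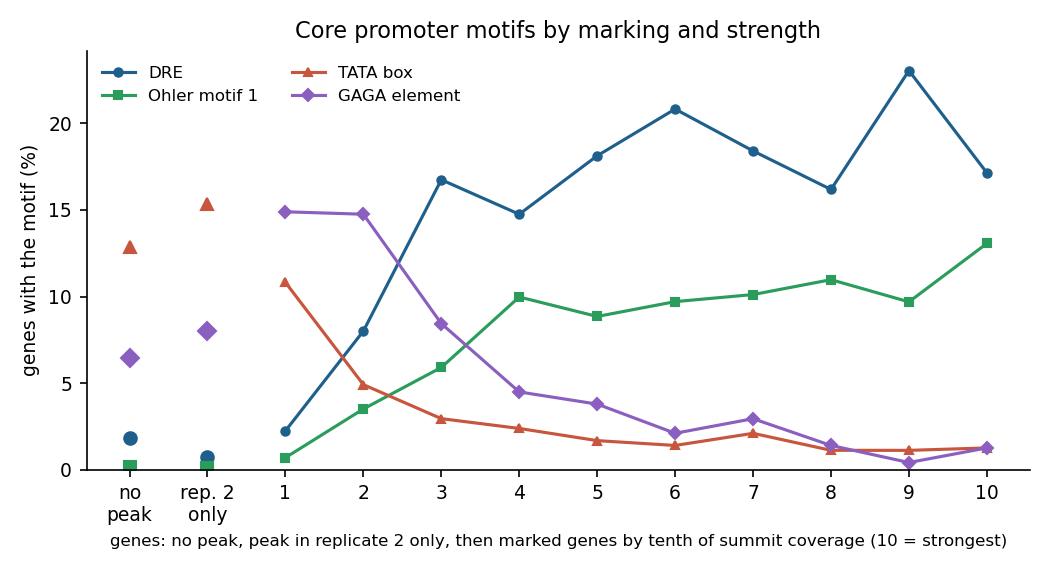
Share of genes (%) with a DRE, Ohler motif 1, a TATA box or a GAGA element at the promoter, for genes with no peak, genes with a peak in replicate 2 only, and marked genes in 10 groups of equal size by summit coverage (10 is the strongest). The DRE is lowest in the weakest group, at 2.25%, and lies between 14.7% and 23.03% from the third group on, and the TATA box falls from 10.8% to 1.26%.

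Gene arrangement differed as well. Divergent genes made up 53.5% of marked genes and 34.0% of all genes, and 80.1% of the 4755 divergent genes were marked against 35.9% of the other 9213. A region at a divergent pair counts for both partners under the rule. Genes without introns were 9.50% of marked and 15.3% of all genes. Marked genes had a median length of 2715 bp, against 1522 bp for genes with no peak, and 35.1% against 14.4% had at least 2 start sites, which gives a gene more chances to be reached.

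Chromosome arms were marked to a similar extent except for chromosomes 4 and Y. The share was 57.1% on X, 52.3% on 2R, 51.3% on 3R, 49.8% on 3L and 46.6% on 2L. On chromosome 4, a small and largely heterochromatic chromosome, 19 of 80 genes were marked (23.8%), a further 28 had a peak in replicate 1 only and none in replicate 2 only, and the median coverage of the marked genes was 10.2 and 3.87. Median promoter GC content of its genes was 33.0%, the lowest of these arms. None of the 23 genes on Y, which these females lack, had a peak.

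Very long genes were marked and unmarked. The longest marked genes were pum, a translational repressor of the germline, with 171 kb and coverage of 6.67 and 4.57, heph, dnc, dpr6 and mbl, with lengths of 163 to 169 kb. The longest genes with no peak were Myo81F (1966 kb), Pzl, lovit, CG17684 and kirre, the first 4 near the centromeric ends of their arms.

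The libraries disagreed most at few genes. Besides Set1, coverage was higher in replicate 1 at eEF1delta (16.4 and 2.48), Zip102B on chromosome 4 (14.3 and 2.23), Saysd1 (8.98 and 1.63) and sp3 (11.98 and 2.40), promoters with a GC content of 20.3% to 36.7%. Coverage was higher in replicate 2 by at most 1.15 on the log2 scale, at CG2533 (1.98 and 4.40), bib (1.81 and 3.805), PGRP-SA, CG42673 and TfAP-2, all of them weak in replicate 1. The window also set some calls. A region reached over the start of 4619 marked genes and came no nearer than 250 bp at 433, while the nearest region was 500 to 1000 bp away at 577 unmarked genes, alphaTub67C among them.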

How the data were processed

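Deposited peak lists of the 2 control libraries were used. Per the study's methods, the authors aligned paired-end reads to dm6 with Bowtie2 2.3.3, kept unique alignments, removed duplicates with Picard 2.17.10 and called peaks per library with MACS2 2.1.1 at a q-value of 0.1. Use of an input library is not stated. The authors' fold enrichment is the ratio of the summit pileup to the local background. Deposited -log10 p and q values served with it to solve the pileup, as (pileup + 1)/(background + 1) and a Poisson tail, and to filter. The deposited score and the summit offset were the authors' values too, the former unused. At most 10 peaks per control list could not be solved. Depth is known only as background per base.

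Genes, starts and promoters came from Ensembl release 115 on the same genome. Analyses used Python 3.11.15, numpy 2.4.6, pandas 2.3.3 and scipy 1.17.1, and the solver and merging were tested on simulated data. Of the names in the 25 lists, 13 were matched by synonym and 7 were not matched. Members and lists were chosen with earlier results of these data known. Named genes are those of the 15 strongest and widest regions, the strongest 2 and the minority members of each list, the unmarked members of ovarian and H3K4 lists, the longest genes and those differing most between libraries, with others chosen after their values were seen. With 2 libraries of 1 group nothing was tested. The methods describe the replicates as biological, each from its own dissection.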

Additional observations from a re-analysis of the deposited data

How the results depend on the processing

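No paired analysis was possible because only 1 group was described and no groups were compared. The number of marked genes was 6551 to 7700 under other windows, thresholds, overlaps and list lengths and 7376 to 8640 with a single library, within 1.5 times of 7123. Regions called in both libraries fell from 10269 to 6472 when a fold enrichment of at least 2 was required. Of the 712 genes with the highest coverage, 99 were also among the strongest 712 by fold enrichment, 365 by the -log10 p-value, 482 within classes of GC content, and 649 to 671 in single libraries. Ribosomal protein genes among them numbered 58 by coverage, 13 by fold enrichment, 33 by -log10 p and 57 to 62 in single libraries. Of the widest 712 genes, 523 remained by the length of the merged region. Weak genes numbered 413 with limits of 3 and 6 in place of 4 and 8, chosen after seeing the data. The cause of these changes was not tested, other than that fold enrichment divides by the local background. Of the 25 lists, 8 changed their marked count by over 1.5 times with replicate 2 alone, 6 with a fold enrichment of 2 or more, and none with replicate 1 alone or with lists of equal length. The precision of weak regions is not known beyond the background per base, and a gene without a peak may still carry the mark.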
